A study of Mus musculus with 16 samples.

Results

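The 4 genes Pdcd5, B3gnt2, Wdfy1 and Dcbld2, were followed library by library in cultured mouse bone marrow stromal cells (BMSCs), the adherent marrow cells that turn into osteoblasts in osteogenic medium. They are 4 of the 45796 genes in the count table and 4 of the 16430 genes with enough counts to be tested. They were chosen by their normalised read counts, as genes whose mutant libraries lay apart from WT with little spread, so their differences from WT are given as a description with no test. The 16 libraries came from 4 genotypes with 4 libraries each, all grown for 21 days in medium with ascorbic acid (50 µg/ml) and beta-glycerophosphate (10 mM). The donors were adult mice. Fgf23cKO mice had intact Dmp1, a floxed first exon of Fgf23 and a Cre transgene under the Dmp1 promoter, which is active in osteocytes and mature osteoblasts. Dmp1KO mice lacked Dmp1 in the whole animal, and Dmp1KO/Fgf23cKO mice carried both changes. In the cross that gave all 4 genotypes, the WT and Dmp1KO littermates were homozygous for the floxed Fgf23 and had no Cre. The study also bred WT and Dmp1KO mice with unfloxed Fgf23 and the Cre, and the labels do not say which kind gave these libraries. If they came from the littermates, effects of the Cre transgene and of the Fgf23 deletion cannot be told apart.

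The 4 genes have distinct roles. Pdcd5 encodes programmed cell death 5, a small protein that in human cells binds the chaperonin CCT and takes part in p53-dependent apoptosis. B3gnt2 encodes a glycosyltransferase of the Golgi that builds poly-N-acetyllactosamine chains on glycoproteins. Wdfy1 encodes a WD repeat and FYVE domain protein of early endosomes, where it binds the lipid phosphatidylinositol 3-phosphate and helps the Toll-like receptors TLR3 and TLR4 recruit the adaptor TRIF. Dcbld2 encodes a transmembrane receptor with CUB, LCCL and discoidin domains like those of the neuropilins, known from vascular smooth muscle and endothelium.

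Pdcd5 (Entrez 56330) spans chromosome 7, 35641985 to 35647482, and B3gnt2 (Entrez 53625) spans chromosome 11, 22834739 to 22860336, in the GRCm38.p6 annotation. Wdfy1 (Entrez 69368) spans chromosome 1, 79702262 to 79776143, and Dcbld2 (Entrez 73379) spans chromosome 16, 58408535 to 58469745. Promoter windows from RefSeq on GRCm38.p6, 250 bases before to 50 after the gene start, were found for 3 of the 4 genes, Pdcd5, B3gnt2 and Dcbld2. For Pdcd5 and Dcbld2 that start is the end of the span given above, and for B3gnt2 it is a start 601 bases inside the span. All windows found are shown, and none was found for Wdfy1. They run 5′ to 3′ along the gene's strand, and capitals mark matches to the GC box (GGGCGG) or the CCAAT box (CCAAT) on either strand.
Pdcd5, chr7:35647433-35647732, minus strand: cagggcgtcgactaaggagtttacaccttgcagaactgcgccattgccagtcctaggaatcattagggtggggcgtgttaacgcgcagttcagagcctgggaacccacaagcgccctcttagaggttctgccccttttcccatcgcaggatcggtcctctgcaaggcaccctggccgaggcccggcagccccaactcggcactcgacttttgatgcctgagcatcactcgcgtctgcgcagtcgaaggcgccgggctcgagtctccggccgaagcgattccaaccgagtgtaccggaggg
B3gnt2, chr11:22859686-22859985, minus strand: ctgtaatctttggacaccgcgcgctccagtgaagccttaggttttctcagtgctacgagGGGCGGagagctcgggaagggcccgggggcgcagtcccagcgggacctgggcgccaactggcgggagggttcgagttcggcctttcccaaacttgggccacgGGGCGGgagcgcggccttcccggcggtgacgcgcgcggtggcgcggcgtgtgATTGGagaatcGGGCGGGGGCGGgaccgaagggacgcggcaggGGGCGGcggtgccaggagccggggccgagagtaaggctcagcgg
Dcbld2, chr16:58408285-58408584, plus strand: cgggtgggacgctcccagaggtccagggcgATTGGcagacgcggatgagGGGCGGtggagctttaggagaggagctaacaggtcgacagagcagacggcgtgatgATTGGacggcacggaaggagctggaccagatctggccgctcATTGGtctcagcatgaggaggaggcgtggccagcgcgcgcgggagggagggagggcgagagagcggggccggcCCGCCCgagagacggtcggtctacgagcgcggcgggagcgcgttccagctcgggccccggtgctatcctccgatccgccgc

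The B3gnt2 window held 5 GC boxes, of which a pair lay end to end, and 1 CCAAT box. The Dcbld2 window held 2 GC boxes and 3 CCAAT boxes, and the Pdcd5 window held neither. Among 32851 promoters of the same length, 35.7% held a GC box and 37.4% a CCAAT box. GC content was 61.7% for Pdcd5, 71.3% for B3gnt2 and 69.7% for Dcbld2, against a median of 52.7% over all promoters. None of the 3 windows held a TATA box (TATAAA), an E-box (CACGTG), an AP-1 motif (TGACTCA) or a cyclic AMP response element (TGACGTCA) on either strand, which 13.6%, 7.15%, 5.2% and 1.79% of all promoters held.

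Library totals ran from 61.9 M to 79.5 M expected counts (M being the SI prefix mega). The targeted genes followed the labels, in CPM (counts scaled to the TMM-adjusted library total). Fgf23 stood at 0.0128 to 0.0996 CPM in Fgf23cKO and Dmp1KO/Fgf23cKO and at 0.633 to 6.19 CPM in WT and Dmp1KO. Dmp1 stood at 41.2 to 109 CPM in the libraries lacking Dmp1 and at 329 to 1396 CPM in the others. The Dmp1KO/Fgf23cKO libraries divided. On a scale where the WT mean is 0 and the Dmp1KO mean is 1, built from all tested genes, libraries 1 and 2 lay at 0.218 and 0.188 and libraries 3 and 4 at 1.11 and 1.00. For the 4 genes, and for the counts of related gene lists and neighbours, results on that genotype are also given without each pair where they change. The labels do not tie libraries to mice, and the study names fewer mice for each genotype than there are libraries, so some libraries may share a mouse. The p-values therefore cover only the spread among libraries, some of which may be technical. In bulk RNA, fewer cells of a type and less RNA per cell cannot be told apart.

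Pdcd5 was higher in every mutant library than in any WT library. In WT it stood at 3.23, 3.48, 3.39 and 3.70 CPM in libraries 1 to 4. In Fgf23cKO it stood at 8.81, 11.99, 10.8 and 15.9 CPM, and in Dmp1KO at 15.9, 15.3, 20.0 and 14.8 CPM. The 4 Dmp1KO/Fgf23cKO libraries held 15.6, 15.4, 16.01 and 15.9 CPM. Group means were 3.45 ± 0.198 CPM in WT, 11.9 ± 2.97 in Fgf23cKO, 16.5 ± 2.35 in Dmp1KO and 15.7 ± 0.290 in Dmp1KO/Fgf23cKO (SD, n = 4). Against the WT mean these were 3.44, 4.78 and 4.56 times as high. The coefficient of variation was 1.84% in Dmp1KO/Fgf23cKO and 25.1% in Fgf23cKO. Since a small spread was part of the choice of genes, nothing is read from it.

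B3gnt2 was lower in every mutant library than in any WT library. It stood at 20.8, 23.0, 23.9 and 22.4 CPM in WT. In Fgf23cKO it stood at 8.47, 2.51, 3.76 and 4.64 CPM, with library 1 the highest of the 4. Dmp1KO libraries held 5.11, 3.33, 4.91 and 3.803 CPM and Dmp1KO/Fgf23cKO libraries 4.71, 8.59, 4.12 and 6.95 CPM. Group means were 22.6 ± 1.30 CPM in WT, 4.84 ± 2.57 in Fgf23cKO, 4.29 ± 0.858 in Dmp1KO and 6.09 ± 2.07 in Dmp1KO/Fgf23cKO (SD, n = 4), or 0.215, 0.190 and 0.270 of the WT mean in the 3 mutants. The mutant libraries overlapped each other throughout. The expected counts behind these levels ran from 186 to 2025 reads.

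Wdfy1 did not lie apart from WT in every mutant library. WT libraries held 11.9, 16.5, 15.2 and 14.5 CPM, and Fgf23cKO libraries 59.6, 68.1, 72.0 and 67.0 CPM. Dmp1KO libraries held 37.2, 11.4, 59.4 and 62.6 CPM, so that library 2 lay below all WT libraries while the others lay above them. Dmp1KO/Fgf23cKO libraries held 41.7, 43.5, 35.1 and 35.7 CPM. Group means were 14.5 ± 1.93 CPM in WT, 66.7 ± 5.19 in Fgf23cKO, 42.7 ± 23.7 in Dmp1KO and 38.995 ± 4.23 in Dmp1KO/Fgf23cKO (SD, n = 4), which is 4.59, 2.94 and 2.68 times the WT mean. The coefficient of variation in Dmp1KO was 55.6%. Wdfy1 thus went against the description of a gene whose mutant libraries lie apart with little spread. A wide spread was not particular to Wdfy1. The coefficient of variation was 53.0% for B3gnt2 in Fgf23cKO and 38.7% for Dcbld2 in Dmp1KO/Fgf23cKO.

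Dcbld2 was lower in every mutant library than in any WT library. WT libraries held 167, 323, 254 and 243 CPM, and Fgf23cKO libraries 75.9, 95.9, 114 and 96.5 CPM. Dmp1KO libraries held 52.9, 63.5, 51.8 and 68.1 CPM. In Dmp1KO/Fgf23cKO, libraries 1 and 2 held 105 and 110 CPM, within the Fgf23cKO range, and libraries 3 and 4 held 54.4 and 53.0 CPM, within the Dmp1KO range. Group means were 247 ± 63.5 CPM in WT, 95.6 ± 15.7 in Fgf23cKO, 59.1 ± 8.01 in Dmp1KO and 80.6 ± 31.2 in Dmp1KO/Fgf23cKO (SD, n = 4), or 0.388, 0.239 and 0.327 of the WT mean.

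**Figure D1:**
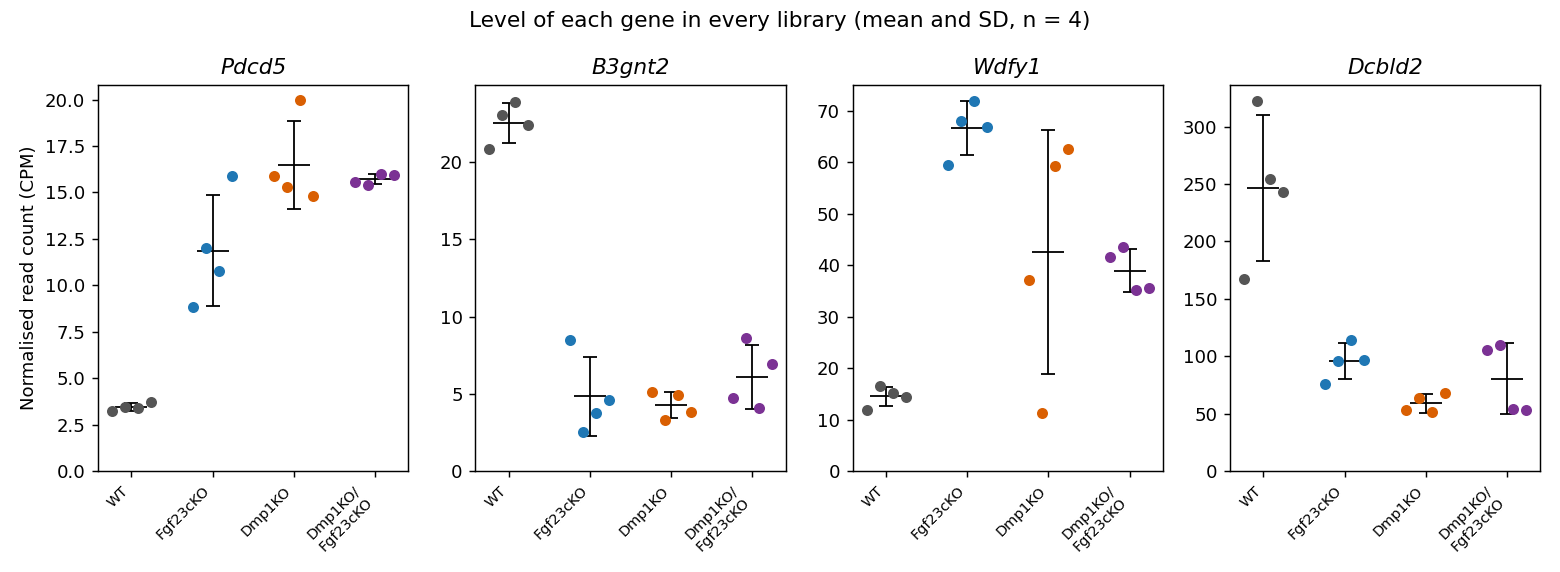
Normalised read count in CPM (vertical axis, linear from 0) of the 4 genes in each library, with libraries 1 to 4 from left to right in each genotype and the black lines giving the mean and SD (n = 4). Pdcd5 and Wdfy1 lie higher in the mutants, except Wdfy1 in Dmp1KO library 2 at 11.4 CPM, and B3gnt2 and Dcbld2 lie lower.

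Of all tested genes, 879 (5.35%) had all 12 mutant libraries above all WT libraries and 480 (2.92%) had all 12 below, 8.27% either way. Since the genes were chosen for this pattern, nothing is read from their place in it. Ordered by the gap between the nearest mutant and WT libraries, Pdcd5 was number 5 of the 879, with a lowest mutant library 2.38 times the highest WT library. B3gnt2 was number 6 of the 480 (2.42 times) and Dcbld2 number 17 (1.46 times).

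The 3 mutants were also compared with each other. Their levels entered these comparisons without the WT levels, but the spread was estimated from all 16 libraries, WT included. The choice of genes favoured a small spread within groups, but their spread was uneven. The coefficient of variation was 1.84% for Pdcd5 in Dmp1KO/Fgf23cKO, against a median of 13.0% for genes of similar level. It was 53.0% for B3gnt2 in Fgf23cKO (median 15.3%) and 55.6% for Wdfy1 in Dmp1KO (median 8.79%). These errors may thus be too small in some comparisons and too large in others. In Dmp1KO against Fgf23cKO, 23.1% of all tested genes passed (edgeR quasi-likelihood test, Benjamini-Hochberg adjusted p under 0.05) and 28.3% had groups that did not overlap. Of the 4 genes, Pdcd5 passed. It was 1.39-fold higher in Dmp1KO (log2 0.47 ± 0.14 SE, edgeR adjusted p = 0.0289), with 2 of 4 Dmp1KO libraries above all Fgf23cKO libraries, so the groups overlapped. The call was lost with only these genotypes in the fit (adjusted p = 0.0718) and on leaving out Dmp1KO library 3 (0.104) or Fgf23cKO library 1 (0.0681), 2 (0.0637) or 3 (0.0743). A share of 1 in 4 is near the background.

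Dcbld2 was lower in all 4 Dmp1KO libraries than in any Fgf23cKO library, at log2 -0.70 ± 0.25 SE, but missed the threshold (edgeR adjusted p = 0.054). It passed in 2 of 13 alternative runs, with DESeq2 (adjusted p = 0.0192) and with only the compared genotypes in the fit (adjusted p = 0.00393). Leaving out 1 library at a time gave edgeR adjusted p from 0.0534 to 0.131. Wdfy1 differed by log2 -0.64 ± 0.34 SE (edgeR adjusted p = 0.178). Without Dmp1KO library 2 that difference was -0.33 (adjusted p = 0.161). B3gnt2 differed by -0.18 ± 0.30 SE (edgeR adjusted p = 0.699), with a 95% interval of -0.83 to 0.47, and changed sign to 0.24 without Fgf23cKO library 1.

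In Dmp1KO/Fgf23cKO against Dmp1KO, the comparison that asks what Fgf23 deletion does in cells lacking Dmp1, 0.0183% of tested genes passed and none of the 4 genes did. Pdcd5 differed by log2 -0.068 ± 0.14 SE (edgeR adjusted p = 0.847), with a 95% interval of -0.37 to 0.23. For B3gnt2 the difference was 0.51 ± 0.30 SE (adjusted p = 0.448, interval -0.14 to 1.16) and for Wdfy1 -0.13 ± 0.34 SE (adjusted p = 0.879, interval -0.86 to 0.60). These intervals leave room for changes of either sign. Dcbld2 differed by 0.45 ± 0.25 SE (edgeR adjusted p = 0.414). That value rested on the divided libraries, since it was -0.15 without libraries 1 and 2 (adjusted p = 0.906) and 0.87 without libraries 3 and 4 (adjusted p = 0.00852).

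In Dmp1KO/Fgf23cKO against Fgf23cKO, which asks what Dmp1 loss does in cells with Fgf23 deleted, 1.27% of tested genes passed, 8.2% had groups that did not overlap, and none of the 4 genes passed. Wdfy1 was lower in all 4 Dmp1KO/Fgf23cKO libraries than in any Fgf23cKO library, with log2 -0.77 ± 0.34 SE (edgeR adjusted p = 0.243). That SE also draws on Dmp1KO, where Wdfy1 varied most. With only the compared genotypes in the fit, Wdfy1 differed by -0.77 ± 0.099 SE (edgeR adjusted p = 0.068), where 1 gene in all passed. Pdcd5 differed by 0.41 ± 0.14 SE (adjusted p = 0.148, 95% interval 0.10 to 0.71) and B3gnt2 by 0.33 ± 0.30 SE (adjusted p = 0.593). Dcbld2 differed by -0.25 ± 0.25 SE (edgeR adjusted p = 0.626), by -0.84 without libraries 1 and 2 (adjusted p = 0.0129) and by 0.17 without libraries 3 and 4 (adjusted p = 0.805).

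**Figure D2:**
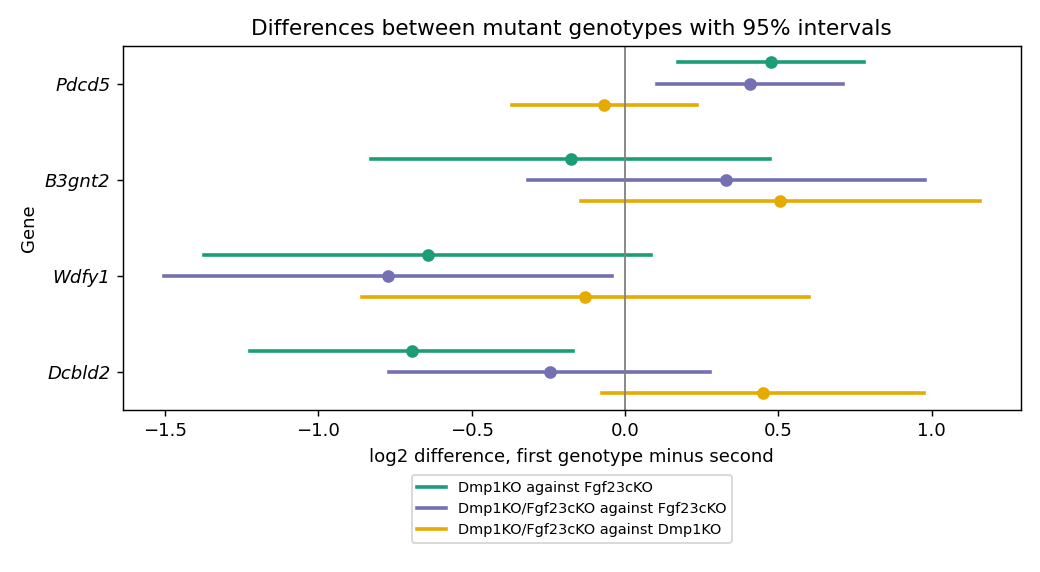
Difference between mutant genotypes on the log2 scale (horizontal axis, first genotype minus second) for each gene, with points for the edgeR estimate and bars for its unadjusted 95% interval. The Pdcd5 interval for Dmp1KO against Fgf23cKO, 0.17 to 0.78, belongs to the single difference that passed after adjustment.

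Within Dmp1KO/Fgf23cKO, Dcbld2 was higher in libraries 1 and 2 than in libraries 3 and 4. On the scale from WT to Dmp1KO, libraries 1 and 2 lay at 0.218 and 0.188, between WT (-0.0442 to 0.0947) and Fgf23cKO (0.265 to 0.399), and their Dcbld2 levels lay within the Fgf23cKO range. The summed CPM of 12 osteoblast markers, none at 0, ran from 56981 to 91724 in WT, 91847 to 111135 in Fgf23cKO and 142964 to 155290 in Dmp1KO, so the label of osteoblast culture held. In Dmp1KO/Fgf23cKO the sum was 68354 and 61071 in libraries 1 and 2, within the WT range, and 225706 and 165349 in libraries 3 and 4. Dcbld2 in libraries 1 and 2 was thus at the Fgf23cKO level while their osteoblast sum was at the WT level. The sum over 6 smooth muscle markers, none at 0, ran from 1112 to 1687 in WT, 606 to 1549 in Fgf23cKO, 340 to 1030 in Dmp1KO and 610 to 1479 CPM in Dmp1KO/Fgf23cKO.

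Of the remaining marker lists, only the adipocyte list had a sum that set a mutant, Dmp1KO, apart from WT. The 8 adipocyte markers, of which up to 2 were at 0 in a library, summed to 145 to 294 CPM in WT, 173 to 245 in Fgf23cKO and 335 to 569 in Dmp1KO. In Dmp1KO/Fgf23cKO their sum was 212 and 197 CPM in libraries 1 and 2 and 769 and 675 CPM in libraries 3 and 4. Of the 7 tested adipocyte markers 0 rose and 1 fell in Dmp1KO (14.3%, against 33.8% of all tested genes). The higher sum was thus not shared by the list. The 7 endothelial markers, of which up to 3 were at 0, summed to 3.24 to 10.7 CPM over all libraries, the 12 macrophage markers to 6060 to 12296 CPM and the 8 osteoclast markers to 206 to 833 CPM. Over the 16 libraries, which share their genotypes, r of Dcbld2 was -0.822 with the osteoblast sum, -0.622 with the adipocyte sum, -0.607 with the endothelial sum and 0.723 with the smooth muscle sum. The endothelial and smooth muscle values thus had opposite signs. For Pdcd5 the same 4 values were 0.619, 0.436, 0.373 and -0.503, for B3gnt2 -0.644, -0.300, -0.198 and 0.345, and for Wdfy1 0.268, -0.101, 0.309 and -0.270. With the macrophage and osteoclast sums all values lay between -0.266 and 0.370. Because the genes were chosen for lying apart from WT, these r values hold that choice and are a description only. The part of these cell types in the values of the 4 genes was not tested.

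**Figure D3:**
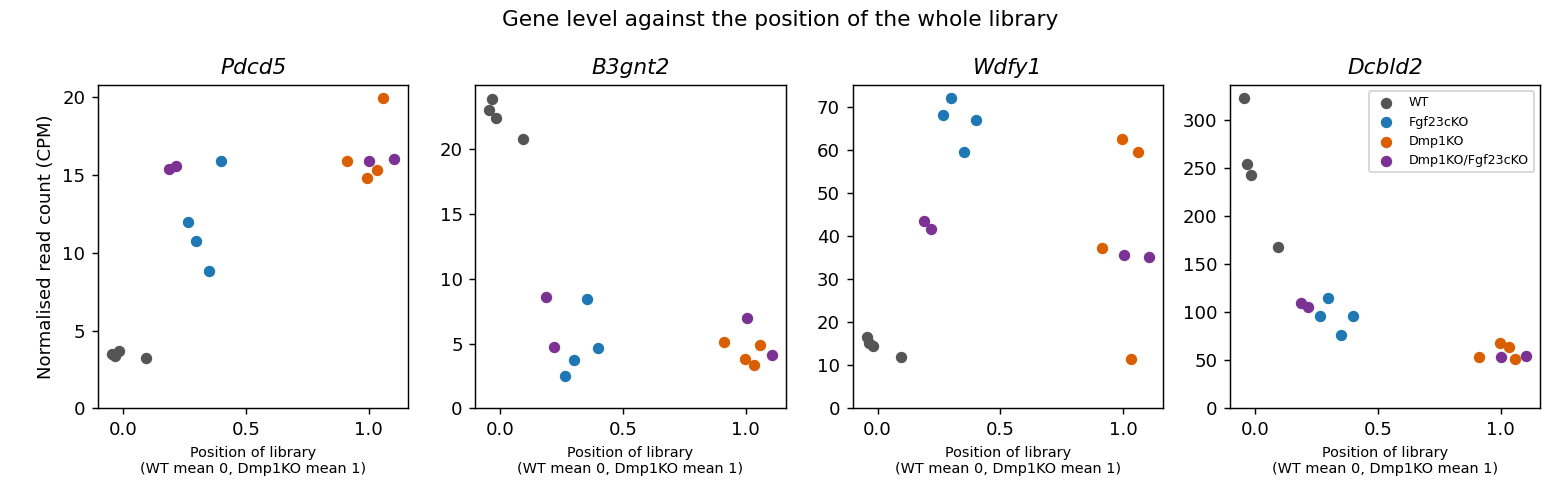
Normalised read count in CPM (vertical axis) of each gene against the position of its library between the WT mean (0) and the Dmp1KO mean (1) over all tested genes, 1 point a library. Dcbld2 in Dmp1KO/Fgf23cKO drops from 105 and 110 CPM to 54.4 and 53.0 CPM between its library pairs, and Pdcd5 lies between 15.4 and 16.01 CPM in the same 4 libraries.

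Among the 12 mutant libraries the 4 genes were weakly related. Pearson r of log2 CPM was -0.064 for Pdcd5 with B3gnt2, -0.445 for Pdcd5 with Dcbld2 and -0.052 for B3gnt2 with Dcbld2, and all 6 pairs lay between -0.445 and 0.391. After removal of the genotype means they lay between -0.231 and 0.220. Over all 16 libraries the same 3 pairs gave -0.884, -0.886 and 0.795, but the genes were chosen for lying apart from WT, so nothing is read from those values. The gene most like Pdcd5 was Ndufb7, a subunit of respiratory complex I, with r = 0.983 over 16 libraries and 0.727 within genotypes, followed by Atp5j, a subunit of the ATP synthase (0.983), Edf1 (0.977), the splicing factor gene Sart1 (0.974) and Utp3 (0.973). Among 13040 genes with a mean of at least 1 CPM, 201 had an absolute r above 0.9 with Pdcd5 and 225 with Dcbld2, against 27 for B3gnt2 and 1 for Wdfy1.

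The genes most like Dcbld2 were Lpp, which encodes a focal adhesion protein (r = 0.964), and Pcdhga3 (0.958) on the same side, and the ribosomal protein gene Rpl28 (-0.953), Pqbp1 (-0.950) and Lrrfip2 (-0.948) on the opposite side. For B3gnt2 all 5 were opposite, namely Uqcrh of respiratory complex III (-0.933), Rrp15 (-0.929), Scarna10 (-0.923), Cops8 (-0.922) and Ndufa2 of complex I (-0.921). For Wdfy1 they were the histone methyltransferase gene Kmt5a (0.928), Rpgrip1l (-0.891), Ssna1 (0.885), Snhg14 (-0.884) and Rnf126 (0.879). These values describe 16 libraries that share 4 genotypes. Because the members were chosen for lying apart from WT, other genes that differ from WT score high with them. The values and the counts of genes above 0.9 are thus a description only.

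Genes of the chaperonin CCT, which the PDCD5 protein binds in human cells, and of prefoldin were called higher in Dmp1KO for the most part. In the other mutants about as many were called higher as were not. Of 16 chaperonin CCT and prefoldin genes, which fold tubulin and actin, 8 rose and 0 fell in Fgf23cKO against WT, where 11.4% of all tested genes passed (6.68% higher, 4.72% lower). In Dmp1KO 15 rose and 0 fell, where 33.8% of tested genes passed (18% higher, 15.8% lower). In Dmp1KO/Fgf23cKO 7 rose and 0 fell, where 11.3% passed (7.72% higher, 3.63% lower). The shares of the list were thus 50%, 93.8% and 43.8%. Their median log2 changes were 0.31, 0.55 and 0.32, against medians of -0.013, -0.016 and -0.0020 over all tested genes. Pfdn6, a prefoldin subunit, stood at 5.66 ± 0.929 CPM in WT, 10.8 ± 1.36 in Fgf23cKO, 15.6 ± 2.43 in Dmp1KO and 13.5 ± 1.66 in Dmp1KO/Fgf23cKO (SD, n = 4), a rise of 1.91-, 2.75- and 2.38-fold (edgeR adjusted p = 0.00149, 2.48e-05 and 0.000187). Pfdn5 rose 1.34-fold in Fgf23cKO and 1.46-fold in Dmp1KO/Fgf23cKO, and the chaperonin subunit gene Cct5 rose 1.57-fold in Dmp1KO. Between Dmp1KO and Fgf23cKO, where 12.4% of tested genes were higher and 10.7% lower in Dmp1KO, 9 were higher and 0 lower, among them Cct4 (1.26-fold) and Cct2 (1.45-fold).

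Of 17 apoptosis and p53 genes, 2 rose and 0 fell in Fgf23cKO, 3 rose and 1 fell in Dmp1KO, and 0 passed in Dmp1KO/Fgf23cKO. These shares of 11.8%, 23.5% and 0% lay near or below the 11.4%, 33.8% and 11.3% of all tested genes, and the median log2 changes were 0.052, 0.030 and 0.051. Trp53, which encodes p53, rose 1.30-fold in Fgf23cKO (edgeR adjusted p = 0.00364) and 1.252-fold in Dmp1KO (0.00363). Mcl1, an inhibitor of apoptosis, rose 1.35-fold in Fgf23cKO, and Apaf1, which forms the apoptosome, fell to 0.788 of WT in Dmp1KO. Dmp1KO exceeded Fgf23cKO in 3 of these genes and lay under it in 2 (29.4%, against 23.1% of all tested genes). The p53 target Bbc3 was 1.60-fold higher and the survival gene Bcl2l1 stood at 0.699.

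Most relatives of B3gnt2 did not pass. Against WT, the B3gnt2 relatives B3gnt3, B3gnt5, B3gnt8 and B3gnt9 and the galactosyltransferase gene B4galt1, which adds the galactose of each lactosamine unit, did not pass in any mutant. B3gnt7 passed in Dmp1KO (log2 -0.90 ± 0.29 SE, edgeR adjusted p = 0.0253). Of 27 tested genes for lactosamine synthesis and the galectins that bind it, 3 rose and 1 fell in Fgf23cKO, 3 rose and 5 fell in Dmp1KO, and 1 rose and 0 fell in Dmp1KO/Fgf23cKO. The list's shares of 14.8%, 29.6% and 3.7% stood against 11.4%, 33.8% and 11.3% over all tested genes, with median log2 changes of -0.059, -0.18 and -0.11. B4galt5 rose 1.66-fold and B4galt4 fell to 0.447 of WT in Fgf23cKO. In Dmp1KO the galectin gene Lgals1 rose 1.59-fold and Mgat4a fell to 0.606, and in Dmp1KO/Fgf23cKO Lgals3 rose 2.30-fold (edgeR adjusted p = 0.0172). Set against Fgf23cKO, Dmp1KO had 3 higher and 5 lower (29.6%, against 23.1% of all tested genes), with B4galt5 at 0.533 and B3gntl1 1.99-fold higher.

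The relatives of Wdfy1 were lower rather than higher where they passed. Wdfy2 fell in Fgf23cKO (log2 -0.37 ± 0.08 SE, edgeR adjusted p = 0.0113) and Dmp1KO (-0.29 ± 0.08 SE, 0.0157). Wdfy3, which encodes an autophagy adaptor, fell in Dmp1KO (-0.77 ± 0.16 SE, 0.00237), as did Wdfy4 (-0.54 ± 0.12 SE, 0.00369). Of 25 genes of endosomes and phosphatidylinositol 3-phosphate, 2 rose and 3 fell in Fgf23cKO, 2 rose and 9 fell in Dmp1KO, and 1 rose and 1 fell in Dmp1KO/Fgf23cKO. That is 20%, 44% and 8% of the list, where 11.4%, 33.8% and 11.3% of all tested genes passed, with median log2 changes of -0.013, -0.19 and -0.074. Rabep1, a partner of RAB5, rose 1.34-fold in Fgf23cKO and 1.24-fold in Dmp1KO/Fgf23cKO, and Uvrag fell to 0.781 and 0.821 of WT in Dmp1KO and Dmp1KO/Fgf23cKO. Set against Fgf23cKO, Dmp1KO had 0 higher and 7 lower (28%, against 23.1% of all tested genes), with Zfyve1 at 0.749.

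Of 15 tested genes of TLR3, TLR4 and TRIF signalling, 4 rose and 1 fell in Fgf23cKO, 0 rose and 5 fell in Dmp1KO, and 0 rose and 1 fell in Dmp1KO/Fgf23cKO. Shares of 33.3%, 33.3% and 6.67% stood against 11.4%, 33.8% and 11.3% of all tested genes, so that the share in Dmp1KO was near the background, and the median log2 changes were 0.067, -0.15 and -0.0070. Tlr3, the receptor for double-stranded RNA, fell to 0.767, 0.772 and 0.811 of WT in Fgf23cKO, Dmp1KO and Dmp1KO/Fgf23cKO (edgeR adjusted p = 0.00572, 0.00265 and 0.021). Tlr4 fell to 0.732 in Dmp1KO, and the kinase gene Ripk1 rose 1.15-fold in Fgf23cKO. Dmp1KO had 0 higher and 6 lower than Fgf23cKO (40%, against 23.1% of all tested genes), among them Traf3 (0.714) and Tlr4 (0.758).

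Dcbld1, the closest relative of Dcbld2, did not pass in any mutant, with log2 changes of 0.15, -0.04 and -0.14. Of 21 tested neuropilin and CUB receptor genes and their partners, 1 rose and 0 fell in Fgf23cKO, 1 rose and 3 fell in Dmp1KO, and 2 rose and 0 fell in Dmp1KO/Fgf23cKO. The shares of 4.76%, 19% and 9.52% lay below the 11.4%, 33.8% and 11.3% of all tested genes, with median log2 changes of 0.051, -0.078 and -0.031. Plxnd1, a semaphorin receptor, rose 2.42-fold in Fgf23cKO and 2.34-fold in Dmp1KO/Fgf23cKO. Sema3a, a ligand of neuropilins, fell to 0.177 of WT in Dmp1KO, and the VEGF receptor gene Kdr rose 2.79-fold in Dmp1KO and 2.17-fold in Dmp1KO/Fgf23cKO. Kdr is also 1 of the 7 endothelial markers, whose sum reached at most 10.7 CPM, so its level was low. Dmp1KO had 2 higher and 4 lower than Fgf23cKO (28.6%, against 23.1% of all tested genes), with Sema3c at 0.423 and Crkl at 0.819.

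The counts of these 6 lists in Dmp1KO/Fgf23cKO depended on which libraries were in the fit. Against WT, 34.6% of all tested genes passed without libraries 1 and 2 and 3.9% without libraries 3 and 4. Of the 16 chaperonin CCT and prefoldin genes, 14 rose in the first case and 4 in the second, and 0 fell in either. Without libraries 1 and 2, 3 of 28 lactosamine and galectin genes rose and 9 fell, 3 of 25 endosome genes rose and 9 fell, and 1 of 15 genes of TLR signalling rose and 7 fell. In the apoptosis and p53 list 1 rose and 1 fell, and among the neuropilin and CUB receptor genes 3 rose and 4 fell. Without libraries 3 and 4 none of these 5 lists had a gene that fell, and 1 or 2 genes of each rose. Against Fgf23cKO, 1.27% of all tested genes passed and 0 genes of the 6 lists. Without libraries 1 and 2, 27.6% passed. Among them 3 lactosamine genes were higher and 11 lower, 2 endosome genes higher and 7 lower, and 1 TLR gene higher and 4 lower. For apoptosis genes the counts were 2 and 5, for CUB receptor genes 4 and 5, and for chaperonin genes 4 and 0. Without libraries 3 and 4, 0.589% passed, with 1 apoptosis and 1 CUB receptor gene higher and 0 lower. In Dmp1KO/Fgf23cKO against Dmp1KO, where 0.0183% of tested genes passed, 0 genes of the 6 lists passed, nor did any without libraries 1 and 2, where 0.142% of tested genes passed. Without libraries 3 and 4, 24.9% of tested genes passed, among them 8 chaperonin and prefoldin genes that were all lower than in Dmp1KO. In that setting 6 genes of TLR signalling were higher and 0 lower, 7 endosome genes higher and 2 lower, 8 lactosamine genes higher and 4 lower, 5 neuropilin and CUB receptor genes higher and 1 lower, and 3 apoptosis genes higher and 1 lower.

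The neighbouring genes on the chromosomes moved in both directions. Among the 40 tested genes nearest the 4 genes, 5 on each side, 2 rose and 2 fell in Fgf23cKO against WT, 10 rose and 6 fell in Dmp1KO, and 3 rose and 2 fell in Dmp1KO/Fgf23cKO. These shares of 10%, 40% and 12.5% were near the 11.4%, 33.8% and 11.3% of all tested genes. Without libraries 1 and 2, 9 rose and 8 fell in Dmp1KO/Fgf23cKO (42.5%, against 34.6% of all tested genes). Without libraries 3 and 4, 2 rose and 1 fell (7.5%, against 3.9%). Set against Dmp1KO, 0 were higher and 1 lower without libraries 1 and 2 (2.5%, against 0.142%). Without libraries 3 and 4, 4 were higher and 8 lower than in Dmp1KO (30%, against 24.9%). Set against Fgf23cKO, 7 were higher and 4 lower without libraries 1 and 2 (27.5%, against 27.6%). Without libraries 3 and 4, 0 passed there, against 0.589%. The gene next to B3gnt2, Commd1, 39.4 kb away, rose in all 3 mutants while B3gnt2 was lower (log2 0.81, 0.76 and 0.83, edgeR adjusted p = 4.7e-05, 2.5e-05 and 3.4e-05). Mdh1, 1262.8 kb from B3gnt2, rose in all 3 (0.33, 0.55 and 0.51). Tbc1d23, 1177 kb from Dcbld2, fell in all 3 (-0.48, -0.53 and -0.48). Ankrd27, 2.7 kb from Pdcd5, passed in none (-0.013, 0.11 and 0.049).

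**Figure D4:**
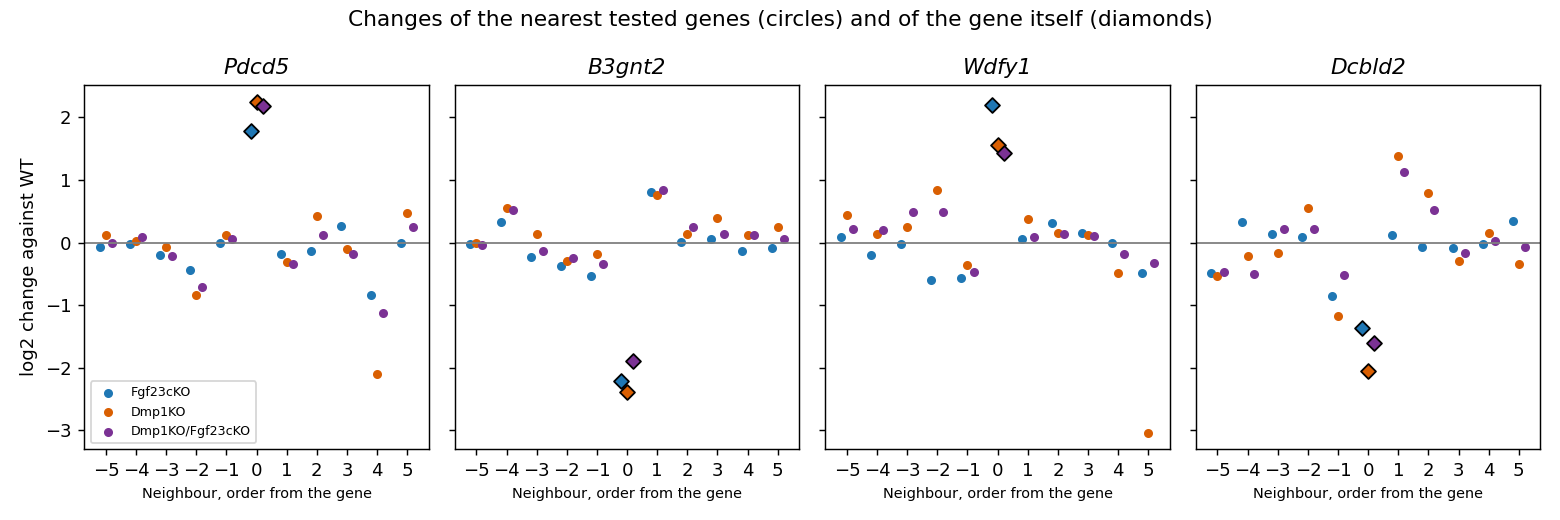
Change against WT on the log2 scale (vertical axis) of the 5 nearest tested genes on each side (circles, ordered outward along the chromosome) and of the gene itself (diamonds, given as a description) in each mutant. Commd1, next to B3gnt2 at position 1, lies at 0.76 to 0.83 while B3gnt2 lies at -2.39 to -1.89.

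Some reads may belong to overlapping genes, since the use of strand is not given in the sources used here. St3gal6 runs against Dcbld2 and shares 1603 exonic bases with it, and it rose in Dmp1KO (log2 1.38 ± 0.40 SE, edgeR adjusted p = 0.0167) while Dcbld2 was lower. Mrpl44 shares 126 exonic bases with Wdfy1 on the opposite strand and rose in Dmp1KO (0.38 ± 0.09 SE, 0.00767). B3gnt2 shares 2449 exonic bases on its own strand with the gene model Gm28048, so a read could be assigned to more than 1 model there. No gene overlapped Pdcd5.

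Short genes tended to be higher in the mutants and long genes lower. Genes whose median coding transcript was under 1000 bases had a median log2 change of 0.091, 0.14 and 0.098 in Fgf23cKO, Dmp1KO and Dmp1KO/Fgf23cKO, and those over 4000 bases of -0.059, -0.11 and -0.066. The median coding transcript was 725 bases for Pdcd5, 2602 for B3gnt2, 914 for Wdfy1 and 6561 for Dcbld2. For Wdfy1 that median rests on short models, since its 9 transcripts run from 460 to 4551 bases. Less the median of genes of similar length, Pdcd5 stood at log2 1.70, 2.13 and 2.10 by the median transcript and at 1.58, 1.95 and 1.94 by the longest, against 1.78, 2.26 and 2.19 as fitted. Dcbld2 stood at -1.29, -1.94 and -1.54 by the median transcript, against -1.37, -2.06 and -1.61 as fitted. The part of length in the values of the 4 genes and of the gene lists was not tested.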

How the data were processed

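Total RNA libraries (TruSeq, 50 bp paired reads, NovaSeq) were mapped by the authors to mouse mm10 in StrandNGS, with version, annotation and strandedness not given in the sources used here. Expected counts for each gene were deposited, 33.4% of them not whole. The authors' log2 values (DESeq-normalised, median-centred) and tables of fold changes and p-values were not used.

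Counts were rounded and tested in R 4.3.3 with edgeR 4.0.16 (quasi-likelihood, robust, TMM, filterByExpr with minimum count 10 and minimum total 15), with all 16 libraries in 1 fit, Benjamini-Hochberg adjustment over 16430 genes and a threshold of 0.05. The fit was tested on simulated data. Correlations used log2(CPM + 0.5). No pair of libraries of the same genotype came near sampling noise, the lowest mean chi-square per gene being 25.7. Pairs across genotypes were not checked. DESeq2 1.42.0, other scalings, filters and library sets were tried as alternatives.

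The genes and lists were chosen with earlier results of these data known. Besides the 4 genes, the text names up to 2 passing members per list and comparison with the smallest adjusted p, fixed relatives, the 5 most similar genes, and neighbours. The median transcript was used for length at first. The longest was added after the Wdfy1 median was seen to rest on short models.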

Additional observations from a re-analysis of the deposited data

Results flagged for a closer look

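Pdcd5 lay on opposite sides of the reference genotype in the 2 comparisons of the Fgf23 deletion. In cells with intact Dmp1, all 4 Fgf23cKO libraries lay above the WT mean, by 5.36 to 12.4 CPM, which is the difference the gene was chosen for. In cells lacking Dmp1, all 4 Dmp1KO/Fgf23cKO libraries lay below the Dmp1KO mean, by -1.09 to -0.474 CPM, with a mean difference of -0.756 CPM. That second difference did not pass (log2 -0.068, edgeR adjusted p = 0.847), its groups overlapped, and it turned to log2 0.045 without Dmp1KO library 3, which stood at 20.0 CPM. Whether the effects differ was not tested, because the WT libraries were used to choose the gene.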

How the results depend on the processing

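No paired analysis was possible because the labels carry no replicate numbers. Against WT, no alternative run turned the direction of the 4 genes, which were chosen for lying apart from WT. Values that moved were Pdcd5 less genes of similar length (Dmp1KO/Fgf23cKO 2.10 by the median transcript, and 1.94, with Dmp1KO at 1.95, by the longest) and Dcbld2 in Dmp1KO/Fgf23cKO without libraries 1 and 2 (-2.21). These length settings, and leaving out Fgf23cKO library 1 with Dmp1KO library 2, were chosen after seeing the data, as were the counts of list genes and neighbours without each library pair.

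In Dmp1KO against Fgf23cKO, leaving out 1 library gave Pdcd5 0.36 to 0.65 and B3gnt2 -0.40 to 0.24. With only the compared genotypes Pdcd5 was 0.46 and Dcbld2 -0.71, and DESeq2 gave Dcbld2 -0.70. Without Fgf23cKO library 1 and Dmp1KO library 2, Pdcd5 was 0.39, B3gnt2 0.34, and 1427 genes passed instead of 3799. In Dmp1KO/Fgf23cKO against Dmp1KO, leaving out 1 library gave Pdcd5 -0.12 to 0.045 and Wdfy1 -0.45 to 0.12. Without libraries 1 and 2 Dcbld2 was -0.15, and without libraries 3 and 4 Dcbld2 was 0.87 and Wdfy1 0.0050. In Dmp1KO/Fgf23cKO against Fgf23cKO, Dcbld2 was -0.84 and 0.17 in the same order.

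Counts of passing genes moved with the libraries. Dmp1KO/Fgf23cKO against Dmp1KO gave 3 genes, 182 with DESeq2, 24 without libraries 1 and 2, 4229 without libraries 3 and 4, and 1 to 233 leaving out 1 library. Dmp1KO/Fgf23cKO against Fgf23cKO gave 208, 1029 with DESeq2, 131 with no filter, 1 with only the compared genotypes, 4685 and 100 without each pair, and 15 to 1314 leaving out 1. Dmp1KO/Fgf23cKO against WT gave 1864, 1201 with only those genotypes, 5863 and 662 without each pair, and 947 to 3009 leaving out 1. Fgf23cKO against WT gave 1873, 3477 with only those genotypes and 978 to 1635 leaving out 1. Dmp1KO against Fgf23cKO gave 1734 to 4420 and Dmp1KO against WT 4076 to 5765 leaving out 1. The cause was not tested.

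The correlations were weaker within genotypes and among the 12 mutants. Uqcrh with B3gnt2 was -0.489 and -0.658, Ndufb7 with Pdcd5 0.727 and 0.8294, and within genotypes Lpp with Dcbld2 was 0.822 and Kmt5a with Wdfy1 0.745.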
